A study of Mus musculus with 13 samples.

Results

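Tumours of an NLRX1-overexpressing line were compared with tumours of its transduced control line in wild-type (WT) BALB/c hosts. The comparison used 4 of the 12 tumour arrays of the series, chosen by their titles. These were 2 arrays labelled WT 4T1OE (4T1 cells overexpressing NLRX1) and 2 labelled WT 4T1OE-CTL (the overexpression control cells). 4T1 cells come from a mammary carcinoma of a BALB/c mouse and form tumours when returned to that strain. The cells had been injected into 1 mammary fat pad per mouse, and the grown tumours were flash frozen. RNA of tumours was pooled, with 1 pool on each Clariom S array. Both WT groups carried a transduced line, so 2 arrays of untransduced parental 4T1 tumours in WT hosts are given beside them as a reference. The remaining arrays of the series held the same 3 lines in Nlrx1-/- BALB/c hosts. The age and sex of the mice, the number of tumours in a pool, the vector and the number of clones in a line were not given in the sources used here. A difference between the lines therefore cannot be told apart from a difference between the cells each line was grown from. The p-values measure the spread between pools.

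NLRX1 is a member of the NOD-like receptor family that locates to mitochondria. It is known as a modulator of antiviral and inflammatory signalling through partners that include MAVS and TRAF6, and of mitochondrial metabolism and autophagy. In tumours it has been described both as restraining and as favouring growth, depending on the model.

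All values are log2 expression levels as the authors deposited them, and all differences are 4T1OE minus 4T1OE-CTL on that scale. A feature is 1 transcript cluster of the array, and 22206 were tested after the control features had been dropped. The levels of the 4 arrays had medians of 5.89 to 6.03. Their standard deviations were 3.095 and 3.101 on the 4T1OE arrays, 3.073 on 4T1OE-CTL replicate 2 and 2.885 on 4T1OE-CTL replicate 1. That last array had narrower values than the other 3. The replicates correlated at r = 0.989 across features in 4T1OE and at 0.978 in 4T1OE-CTL. A level under the median of the negative control features of its array (5.26 to 5.47 on these 4) was taken as not above background, and 7892 features were there on all 4 arrays. Where only 1 side of a comparison lay under it, the difference is given as a bound. Of the parental arrays of WT hosts, replicate 1 also had narrower values (standard deviation 2.886) than replicate 2 (3.069). Their negative control medians were 5.637 and 5.293, and they correlated at r = 0.974. Parental means join these unlike arrays.

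Nlrx1 itself was measured at 9.9997 and 9.31 on the 4T1OE arrays and at 7.06 and 6.93 on the 4T1OE-CTL arrays. Parental tumours of WT hosts read 6.13 and 7.13. Both 4T1OE arrays lay above the other 4 arrays of WT hosts without overlap. The difference between 4T1OE and 4T1OE-CTL was 2.66 (SE 0.407, limma adjusted p = 0.0921), which missed the threshold of 0.05. An exact permutation test of 2 against 2 arrays cannot go below p = 0.333. Leaving out 1 array at a time gave 2.32 to 3.01. Against parental tumours Nlrx1 was 3.02 higher in 4T1OE (adjusted p = 0.043). Whether the construct carried mouse or human NLRX1 is not stated in the labels, and the mouse feature may therefore read only part of it.

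Of 16 measured genes of the NLRX1 partner and mitochondrial antiviral list, none was called, and the median difference was 0.13 against -0.01 over all features, and -0.18 with each array's standard deviation as covariate. Traf6, which encodes a ubiquitin ligase bound by NLRX1, differed by 0.68 (unadjusted p = 0.113). Cgas, the cytosolic DNA sensor, read 7.64 and 7.94 in 4T1OE against 6.29 and 7.40 in 4T1OE-CTL, a difference of 0.94 (adjusted p = 0.576). Irf7, a transcription factor of the interferon response, read 8.76 and 8.96 against 9.08 and 10.22 (-0.79, adjusted p = 0.705). Mavs, the mitochondrial adaptor, differed by 0.32, and its arrays overlapped. Without WT 4T1OE-CTL replicate 1, Cgas, Irf7 and Mavs were 0.39, -1.36 and -0.10, and without replicate 2 they were 1.49, -0.22 and 0.73. Traf6 was 0.41 without WT 4T1OE replicate 2.

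Among the 22206 features, 3 passed the adjusted threshold (0.0135%), all of them lower in 4T1OE and none higher. They were Tslp, Ptpn13 and a feature with no gene symbol in the annotation used, TC1500001728.mm.2. At an unadjusted p under 0.05 there were 1793 features (8.07%), of which 1103 were higher (4.97%) and 690 lower (3.11%). Both 4T1OE arrays lay above both 4T1OE-CTL arrays for 4654 features (21.0%) and below them for 4605 (20.7%), so the lack of overlap alone carries little weight for a single gene. The count of calls was 1 without either 4T1OE array of WT hosts, without WT 4T1OE-CTL replicate 1 or without either 4T1OE array of Nlrx1-/- hosts. It was 12 without either 4T1OE-CTL array of Nlrx1-/- hosts.

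**Figure D1:**
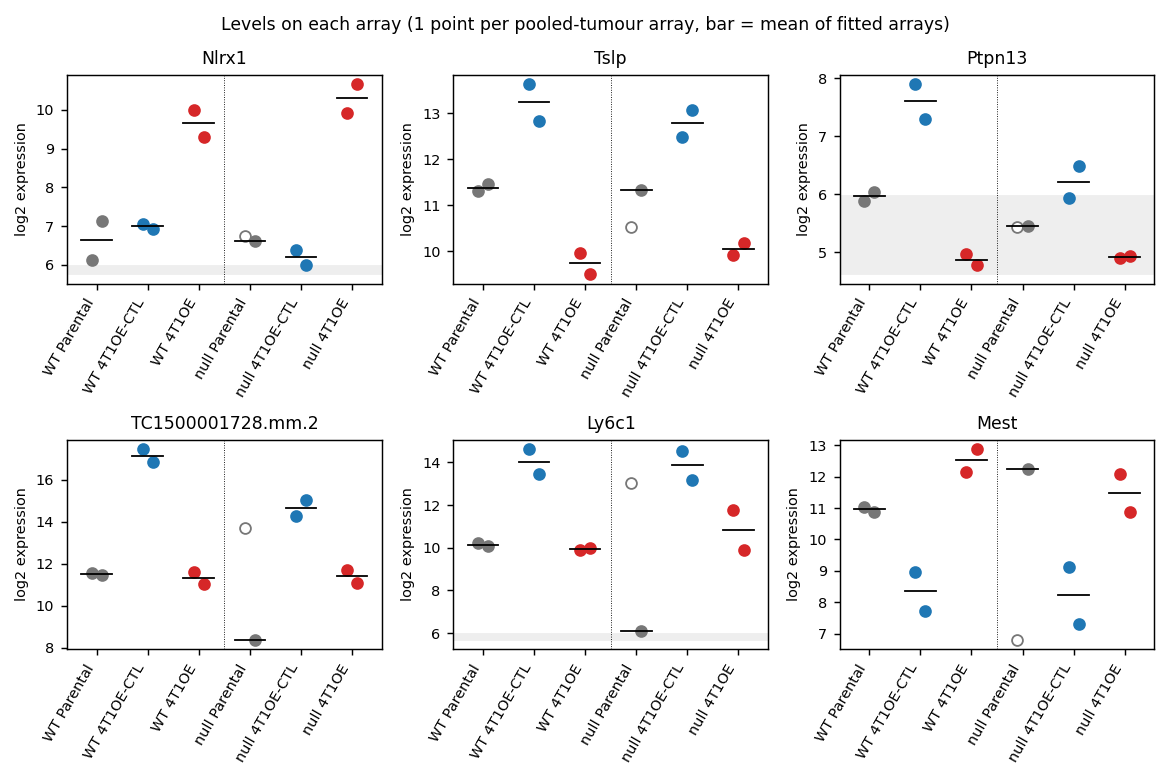
Log2 level of Nlrx1, the 3 called features, Ly6c1 and Mest on each array, by host and line (grey parental, blue 4T1OE-CTL, red 4T1OE; null means Nlrx1-/-; an open circle is the array left out of the fits; bars are means; the shaded area lies under the highest negative control median of any array). In WT hosts the red and blue points do not overlap in any panel. The grey mean lies nearer the red mean than the blue one in every panel except Nlrx1, by a small margin for Tslp.

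Tslp encodes thymic stromal lymphopoietin, an epithelial alarmin cytokine that acts on dendritic cells and other immune cells. Its level was 9.97 and 9.50 in 4T1OE tumours and 13.64 and 12.84 in 4T1OE-CTL tumours. Parental tumours read 11.31 and 11.45, between the transduced lines. Tslp fell by 3.51 (SE 0.348, adjusted p = 0.0196). The call ended without WT 4T1OE replicate 1 (adjusted p = 0.188) or 2 (0.535), without WT 4T1OE-CTL replicate 1 (0.137), and without either 4T1OE array of Nlrx1-/- hosts (0.0776), while the difference stayed between -3.90 and -3.11. The other 14 measured genes of the TSLP, IL-33 and type 2 list were not called. The TSLP receptor chain gene Crlf2 read 6.05 and 6.19 against 5.86 and 6.27, with overlap. Il7r, the other receptor chain, read 6.87 and 7.06 in 4T1OE against 8.85 and 9.03 in 4T1OE-CTL, a difference of -1.98 (adjusted p = 0.454). Il33, the related alarmin, differed by 0.10. Il4, Il5, Il13, Il25 and Il17rb lay under the negative control median on all 4 arrays. Ccl24, an eosinophil-attracting chemokine, differed by 1.59 (adjusted p = 0.464).

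Ptpn13 encodes a large non-receptor tyrosine phosphatase. It read 4.97 and 4.77 in 4T1OE, under the negative control median, and 7.90 and 7.30 in 4T1OE-CTL. Parental tumours read 5.88 and 6.04. Ptpn13 was therefore at least 2.27 lower in 4T1OE on the log2 scale (adjusted p of the fit 0.0348). Leaving out 8 of the 11 fitted arrays, 1 at a time, ended its call. These were all 6 arrays of WT hosts and both 4T1OE arrays of Nlrx1-/- hosts, with an adjusted p of 0.0535 to 0.813. Of the 17 measured phosphatases of this class no other was called, and 12 of the 17 differences were above 0 (median 0.27). The median was 0.02 without WT 4T1OE-CTL replicate 1, 0.57 without replicate 2 and -0.05 with each array's standard deviation as covariate. Ptpn14, Ptpn4 and Ptpn2 differed by 0.61, 0.50 and 0.50 (adjusted p 0.701 to 0.763). Ptpn14 and Ptpn4 were 0.23 and 0.31 without WT 4T1OE-CTL replicate 1, Ptpn14 was 1.00 without replicate 2, and Ptpn2 was 0.27 without WT 4T1OE replicate 2.

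TC1500001728.mm.2 read 11.61 and 11.05 in 4T1OE, 17.45 and 16.82 in 4T1OE-CTL, and 11.58 and 11.46 in parental tumours. It fell by 5.803 (SE 0.371, adjusted p = 0.000667), and the 4T1OE mean differed from the parental mean by -0.19. Its call held without each of the 11 arrays in turn, and was lost when the array left out of the fits was added back (adjusted p = 0.822).

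Ly6 genes encode small surface proteins anchored by a lipid, several of them used as markers of myeloid and endothelial cells. Ly6c1 read 9.89 and 10.01 in 4T1OE, 14.61 and 13.46 in 4T1OE-CTL, and 10.23 and 10.06 in parental tumours. Its difference of -4.08 was the most negative among genes named by the rule for the largest differences, yet it was not called (SE 0.635, adjusted p = 0.0921). Ly6c2 read 7.63 and 7.35 against 11.75 and 10.42 (-3.60, adjusted p = 0.355). Ly6c1 and Ly6c2 are near-identical copies, so which of them a probe measures is uncertain. Ly6e read 12.40 and 12.79 against 15.45 and 16.03 (-3.14, adjusted p = 0.0935), and Ly6i differed by -1.47. These 4 genes were the members with an unadjusted p under 0.05 among 20 measured, against 3.11% of all features in the lower direction. The median of the family was -0.16. Another 8 members lay under the negative control median on all 4 arrays.

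Guanylate-binding proteins and immunity-related GTPases are induced by interferons and act against pathogens inside cells. All 12 measured members lay lower on both 4T1OE arrays than on both 4T1OE-CTL arrays, with a median of -2.11, against 20.7% of all features. None passed the adjusted threshold, and all 12 had an unadjusted p under 0.05, against 3.11% of all features in the lower direction. Tgtp2 read 12.58 and 11.83 in 4T1OE and 15.72 and 15.04 in 4T1OE-CTL (-3.17, SE 0.497, adjusted p = 0.0921). Its near-identical copy Tgtp1 had no feature of its own, so which of the copies this signal belongs to is uncertain. Igtp read 10.29 and 9.73 against 13.65 and 12.26 (-2.94, adjusted p = 0.0921). Irgm2 read 9.19 and 9.54 against 12.45 and 11.45 (-2.59, adjusted p = 0.0921). Irgm1 differed by -2.09, Gbp4 by -2.80, Gvin1 by -2.13 and Iigp1 by -2.32. The 5 other guanylate-binding protein genes, Gbp2, Gbp3, Gbp7, Gbp8 and Gbp9, differed by -1.65 to -1.41. Gm12250, a related GTPase gene outside the list, differed by -2.87 (adjusted p = 0.155). The median stayed between -2.49 and -1.73 when 1 array was left out at a time, while Gbp2 and Gbp7 were -0.72 and -0.99 without WT 4T1OE-CTL replicate 1.

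Promoter sequence was available for 7 of the 12 genes. The 150 bases before the annotated start are shown for 5 of them (RefSeq, GRCm38.p6), because all members of the family lay lower in 4T1OE and these windows share a motif. Capitals mark GAAANNGAAA or its reverse complement TTTCNNTTTC, the core of an interferon-stimulated response element, and TTCNNNGAA, the core of a gamma-activated site, which reads the same on both strands.
Gbp2, chr3:142620513-142620662, plus strand: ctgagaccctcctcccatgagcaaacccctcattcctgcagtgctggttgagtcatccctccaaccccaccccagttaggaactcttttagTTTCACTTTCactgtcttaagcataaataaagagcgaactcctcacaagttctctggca
Gbp7, chr3:142530186-142530335, plus strand: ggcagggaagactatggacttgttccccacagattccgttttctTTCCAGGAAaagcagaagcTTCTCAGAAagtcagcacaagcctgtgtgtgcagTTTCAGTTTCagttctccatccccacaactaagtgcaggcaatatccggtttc
Igtp, chr11:58199406-58199555, plus strand: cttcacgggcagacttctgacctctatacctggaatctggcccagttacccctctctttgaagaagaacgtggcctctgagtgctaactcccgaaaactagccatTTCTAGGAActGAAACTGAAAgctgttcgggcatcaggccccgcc
Irgm2, chr11:58214827-58214976, plus strand: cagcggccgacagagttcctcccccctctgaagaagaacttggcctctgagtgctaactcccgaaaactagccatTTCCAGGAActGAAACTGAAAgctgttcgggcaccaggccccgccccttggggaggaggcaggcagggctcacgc
Tgtp2, chr11:49064213-49064362, minus strand: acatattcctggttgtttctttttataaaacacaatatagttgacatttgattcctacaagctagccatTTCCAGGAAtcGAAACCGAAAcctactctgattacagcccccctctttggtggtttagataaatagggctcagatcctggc
The 10-base motif was found in all 7 promoters, which were those of the 5 genes shown and of Gbp3 and Irgm1. It was found in 1.59% of 32851 promoter windows of the same length, and in 1.85% of 27025 genes with a window. The 9-base motif was found in 4 of the 7 (Gbp7, Igtp, Irgm2 and Tgtp2), against 4.09% of windows. In those 4 sequences the 9-base motif stands before the 10-base motif, without overlap. A second annotated start of Gbp3 held neither. Among genes with a window, the 10-base motif was found in 10 of 25 of the type I interferon list, 1 of 13 of the interferon gamma and CXCR3 list, 2 of 17 of the MHC class I list, 0 of 14 macrophage markers and 0 of 9 endothelial markers. It was found in 3 of 11 of the 15 lowest genes and in 0 of 13 of the 15 highest. Those 3 were the GTPase genes Tgtp2, Igtp and Gm12250, and Tgtp2 and Igtp are also among the 7 above. The count therefore adds nothing about the other lowest genes with a window, none of which held the motif. These matches describe letters in a window and are not measured binding sites.

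**Figure D2:**
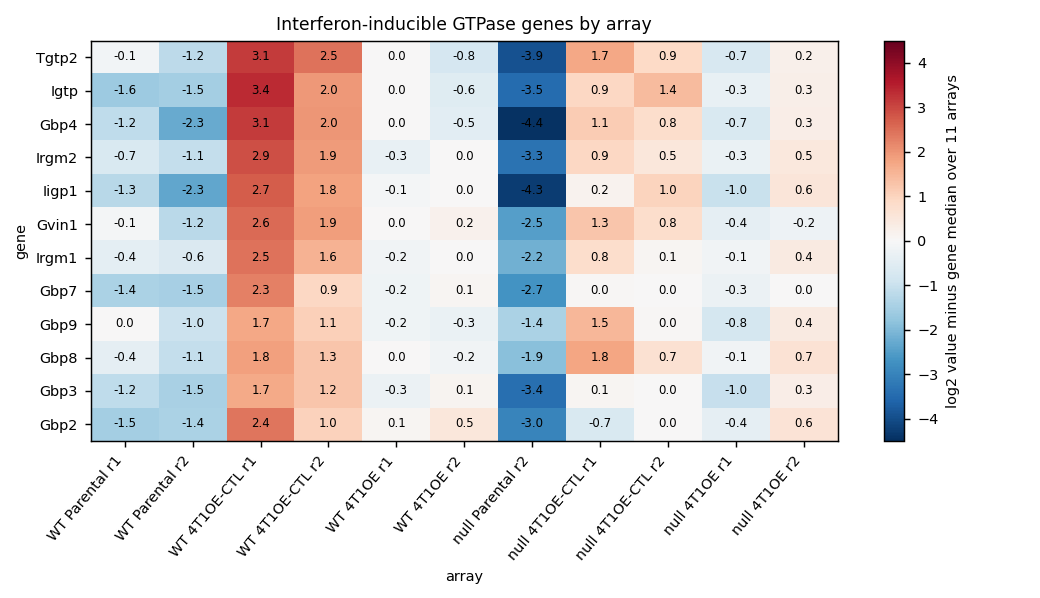
Level of the 12 GTPase genes on each fitted array, as the log2 value relative to the gene's median of the 11 fitted arrays (red above, blue below; r1 and r2 are replicates; null means Nlrx1-/-). WT 4T1OE-CTL replicate 1 is the highest array for each of the 12 genes, the WT 4T1OE columns lie near 0, and the parental columns are mostly blue.

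Parental tumours read as low or lower for this family. Tgtp2 read 12.47 and 11.40 there, Igtp 8.66 and 8.75, and Gbp4 12.99 and 11.87. Against the same parental arrays, the median of the 12 genes was 3.12 in 4T1OE-CTL, and in 4T1OE it was 0.99. These comparisons share the parental arrays, and the first shares the 4T1OE-CTL arrays with the comparison of interest. Each gene was next set to 0 at its median of the 11 fitted arrays, and the median of the family after this centring, called its deviation, was 2.503 and 1.70 on the 4T1OE-CTL arrays, -0.05 and 0.00 on the 4T1OE arrays, and -0.92 and -1.31 on the parental arrays.

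Other interferon-responsive genes lay in the same direction with smaller differences. In the type I interferon response list, 28 of 35 measured genes were below 0, and 19 lay lower and 2 higher without overlap (median -0.79, none called), against 20.7% and 21.0% of all features. Zbp1, a sensor of Z-form nucleic acids, read 7.77 and 7.73 against 9.49 and 9.40 (-1.70, adjusted p = 0.0921). Xaf1 differed by -1.74 (adjusted p = 0.0922) and Bst2, which tethers virions to the cell surface, by -1.88 (adjusted p = 0.0964). Isg15, an interferon-induced ubiquitin-like modifier, differed by -1.94. In the interferon gamma and CXCR3 ligand list, 13 of 16 were below 0, and 11 lay lower and 3 higher without overlap (median -1.05, none called). Cxcl9, a chemokine that draws CXCR3-bearing lymphocytes, read 13.09 and 13.27 in 4T1OE, 16.12 and 15.23 in 4T1OE-CTL, and 10.37 and 11.16 in parental tumours (-2.50, adjusted p = 0.162). Ido1, which degrades tryptophan, was under the negative control median in 4T1OE and differed by -0.45 or more in size. Ifng itself read 5.46 and 4.57 against 5.85 and 7.13 (-1.48, and -0.84 without WT 4T1OE-CTL replicate 2), and its receptor gene Ifngr1 differed by 0.72. The Ifng value of 4.57 lay under the negative control median of its array. Ifng is also counted in the cytotoxic and NK cell list below. The ligands of the PD-1 checkpoint, Cd274 and Pdcd1lg2, differed by -1.53 and -2.29 (adjusted p = 0.284 and 0.149). Relative to parental tumours of WT hosts, the type I list median was 1.05 in 4T1OE-CTL and 0.36 in 4T1OE. The interferon gamma list medians were 1.68 and 0.59 in the same order.

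Antigen presentation genes followed. Of 19 measured MHC class I and peptide loading genes, 16 were below 0, and 14 lay lower and 2 higher without overlap (median -0.56, none called), against 20.7% and 21.0% of all features. H2-T23, a non-classical class I gene, differed by -1.52, the immunoproteasome subunit gene Psmb9 by -1.41 and H2-T22 by -1.32 (adjusted p 0.193 to 0.274). Of 14 MHC class II genes, 12 were below 0, and 7 lay lower and 1 higher without overlap (median -0.74, none called). H2-DMb1, which helps load peptides, read 12.13 and 10.99 against 13.46 and 14.44 (-2.39, adjusted p = 0.282). H2-Aa read 14.41 and 14.01 against 15.48 and 16.55. The class II median was -0.36 without WT 4T1OE-CTL replicate 2 and -0.99 without replicate 1. In the inflammasome and NLR list the median was 0.01, with 10 of 20 on each side. Casp1, the inflammasome's protease, read 10.98 and 11.13 against 12.55 and 12.96 (-1.70, adjusted p = 0.0964), and Casp4 differed by -1.24. Relative to parental tumours, the class I median was 0.92 in 4T1OE-CTL and 0.36 in 4T1OE. The class II median was 0.95 and -0.10 in the same order.

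Of 18 measured cytotoxic and NK cell markers, 16 were below 0, and 12 lay lower and 2 higher without overlap (median -0.84, none called), against 20.7% and 21.0% of all features. Gzmb, a cytotoxic granule protease, read 8.42 and 8.74 in 4T1OE, 10.14 and 12.31 in 4T1OE-CTL, and 5.81 and 6.35 in parental tumours (-2.64, adjusted p = 0.274, and -1.56 without WT 4T1OE-CTL replicate 2). The cytotoxic median was -1.32 without WT 4T1OE-CTL replicate 1 and -0.51 without replicate 2. Gzma differed by -1.84, Nkg7 by -1.80 and Klrk1, an activating NK receptor gene, by -0.84. Of 14 T cell markers, 13 were below 0, and 10 lay lower and 1 higher without overlap (median -0.55). None of the 14 had an unadjusted p under 0.05, against 8 of the 18 cytotoxic markers and 3.11% of all features in the lower direction. Cd8a read 5.66 and 5.25 against 7.47 and 8.27, and Cd3e 5.35 and 5.31 against 6.40 and 7.19. On 4T1OE replicate 2 both lay under the negative control median of that array (5.39). Gzmk, Klrb1c, Ncr1, Tbx21, Fasl, Cd5 and Zap70 lay under the negative control median on all 4 arrays. The log2 of the summed linear levels was 11.68 and 12.10 in 4T1OE and 12.43 and 13.87 in 4T1OE-CTL for the cytotoxic list, and 9.80 and 9.78 against 10.47 and 10.89 for the T cell list. Their part in the interferon difference was not tested. In a bulk tumour, fewer cells of a type and less RNA per cell cannot be told apart. Relative to parental tumours, the cytotoxic median was 1.44 in 4T1OE-CTL and 0.51 in 4T1OE, and the T cell median 0.80 and 0.10.

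Mast cell genes showed the same direction less evenly. Of 13 measured, 12 were below 0, and 5 lay lower and 1 higher without overlap (median -0.95, none called), against 20.7% and 21.0% of all features. Mcpt1, a mast cell protease, read 6.57 and 5.69 against 8.45 and 9.20, and 4.09 and 4.41 in parental tumours (-2.70, adjusted p = 0.529). Both parental values lay under the negative control median. Cma1, the chymase gene, differed by -0.56 or more in size. Kit, the stem cell factor receptor that mast cells carry, differed by 1.35, in the opposite direction, and is not particular to them. The median of the list was -0.43 without WT 4T1OE replicate 2, -0.46 without WT 4T1OE-CTL replicate 2 and -1.31 without WT 4T1OE-CTL replicate 1. Relative to parental tumours it was 1.55 in 4T1OE-CTL and 0.56 in 4T1OE.

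**Figure D3:**
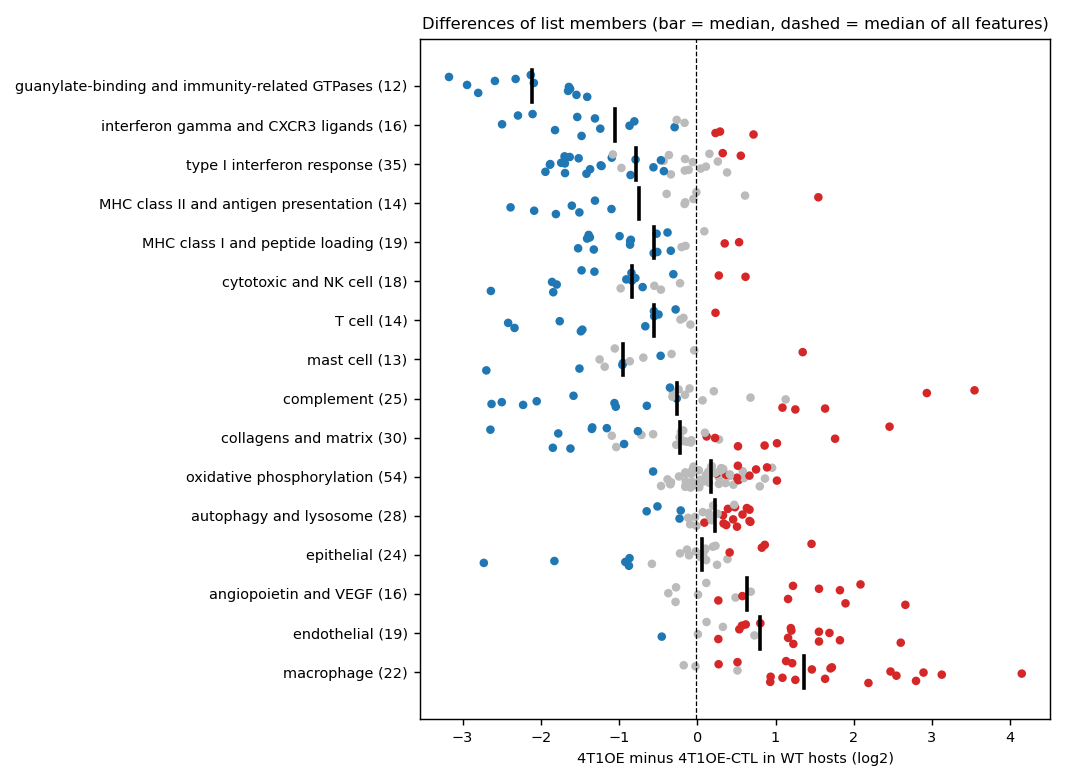
Difference of each measured member of 16 gene lists in WT hosts (4T1OE minus 4T1OE-CTL, log2; fitted values; the number measured is in brackets; red and blue points are genes whose arrays do not overlap, grey points overlap). The black bars are list medians, from -2.11 for the GTPases to 1.36 for macrophage markers, and the dashed line is the median of all features at -0.01.

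Complement genes lay on both sides. Over 25 measured genes the median was -0.26, none called. Without overlap, 10 lay lower and 5 higher, against 20.7% and 21.0% of all features, so the higher count was near the share of all features. The median was -0.07 without WT 4T1OE-CTL replicate 2 and -0.40 without replicate 1. C1s2, a protease of the classical pathway, read 6.69 and 6.62 against 9.30 and 9.27 (-2.63, SE 0.384, adjusted p = 0.0921), C1s1 differed by -2.23, C4a by -2.50 and C4b by -2.05 (adjusted p 0.0935 to 0.16). C1s1 and C1s2, and C4a and C4b, are close copies whose signals may be shared. C1ra, C1rb and C2, also of the classical pathway, differed by -1.04, -0.65 and -1.06, and C2 by -0.58 without WT 4T1OE-CTL replicate 1. C6, a component of the membrane attack complex, read 8.87 and 8.86 against 4.99 and 6.87 (2.93, adjusted p = 0.155). The value of 4.99 lay under the negative control median of its array. Fcna, a pattern-recognising ficolin, read 7.94 and 7.83, whereas both 4T1OE-CTL arrays lay under the negative control median, a difference of at least 2.51 (adjusted p of the fit 0.177). C1qa, C1qb and C1qc, the subunits of C1q that macrophages make, are also counted among the macrophage markers below. They differed by 1.25, 1.63 and 1.09 (adjusted p 0.613 to 0.722). Without WT 4T1OE-CTL replicate 1 these were 0.27, 0.58 and 0.17, without replicate 2 they were 2.24, 2.68 and 2.01, and with each array's standard deviation as covariate 0.19, 0.45 and 0.04.

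Macrophage markers formed the opposite pole of the comparison. Of 22 measured, 20 were above 0 and 19 did not overlap between the groups, with a median of 1.36, none called. The share without overlap in the higher direction over all features was 21.0%. Fcrls, an Fc receptor-like gene of resident macrophages, read 11.39 and 11.25 in 4T1OE, 7.92 and 6.42 in 4T1OE-CTL, and 8.75 and 11.51 in parental tumours (4.15, SE 0.817, adjusted p = 0.159). Folr2, a folate receptor, read 9.09 and 9.47 against 5.82 and 6.48 (3.13, adjusted p = 0.159). Cd163, the haptoglobin-haemoglobin scavenger receptor, read 8.49 and 9.11 against 6.84 and 5.66 (2.55, adjusted p = 0.155). Mrc1, the mannose receptor, differed by 2.80 and Cx3cr1, the fractalkine receptor, by 2.89. Csf1r, the receptor of the growth factor macrophages need, read 13.46 and 13.38 against 10.45 and 12.01 (2.19, adjusted p = 0.355), and Adgre1, the F4/80 gene, differed by 0.93. Without WT 4T1OE-CTL replicate 1 these were 1.41 and 0.39, and Adgre1 was 1.48 without replicate 2. Vsig4 lay under the negative control median on all 4 arrays.

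The 4T1OE-CTL arrays were not alike in these genes. The macrophage list deviated by -1.87 on 4T1OE-CTL replicate 1 and by -0.26 on replicate 2, against 0.55 and 0.35 on the 4T1OE arrays. Parental replicates 1 and 2 of WT hosts were also unlike, at -1.04 and 0.42. The median difference was 0.54 without WT 4T1OE-CTL replicate 1 and 2.12 without replicate 2. Replicate 1 was also the array of the 4 with the narrowest values. When each array's standard deviation was added to the fit as covariate, Fcrls, Folr2 and Mrc1 differed by 3.84, 2.34 and 2.00, and Cx3cr1 and Csf1r by 1.65 and 1.24, and the list median was 0.58. The log2 of the summed linear levels of the list was 18.70 and 18.87 in 4T1OE, 16.22 and 17.87 in 4T1OE-CTL, and 18.74 and 19.43 in parental tumours.

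Further genes with known roles in macrophages were among the 15 highest differences. Gas6, a ligand of the TAM receptor kinases that mediates uptake of dying cells, read 8.82 and 9.20 in 4T1OE, 5.65 and 5.87 in 4T1OE-CTL, and 6.00 and 7.82 in parental tumours (3.25, SE 0.621, adjusted p = 0.155). Its receptor gene Mertk differed by 0.94 and Stab1, a scavenger receptor, by 0.99. Without WT 4T1OE-CTL replicate 1 they were 0.42 and 0.53, and Mertk was 1.46 without replicate 2. Ccl12, a monocyte-attracting chemokine, read 12.63 and 12.19 against 8.12 and 10.57 (3.06, adjusted p = 0.355, and 1.84 without WT 4T1OE-CTL replicate 1). Cbr2, a carbonyl reductase, and F13a1, the A chain of coagulation factor XIII, differed by 2.77 and 2.64. The monocyte list had a median of 0.40 (0.14 without WT 4T1OE-CTL replicate 1, 0.20 without WT 4T1OE replicate 1 and -0.07 with each array's standard deviation as covariate), with Ly6c2 at one end and F13a1 at the other.

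**Figure D4:**
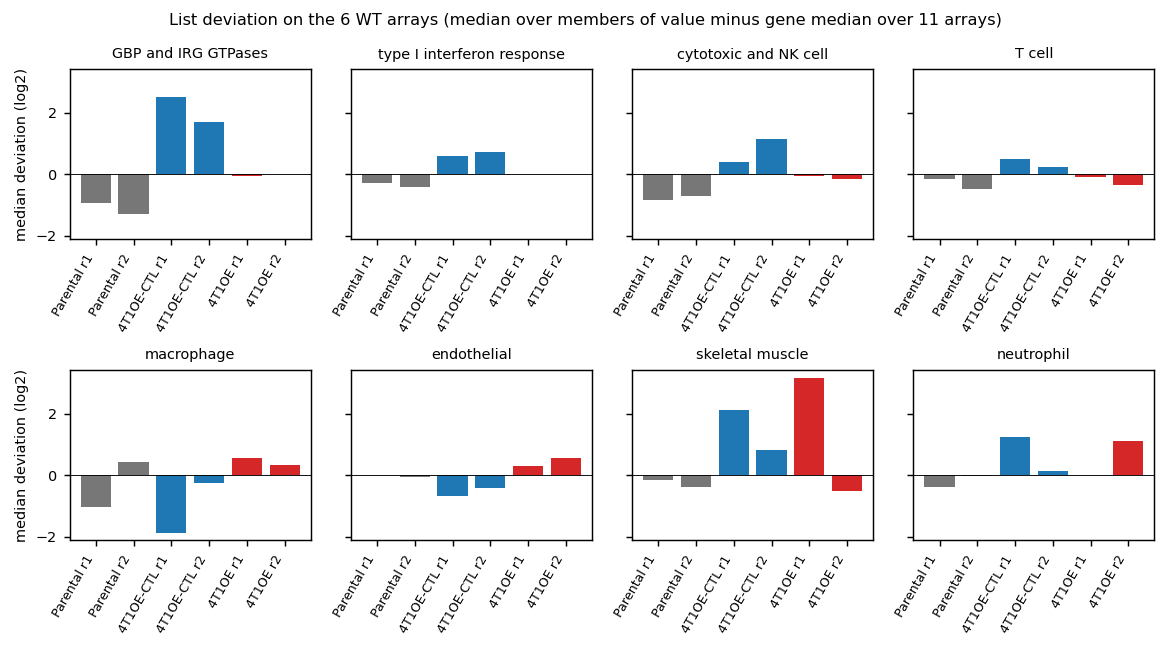
Deviation of 8 gene lists on the 6 arrays of WT hosts, as the median of its genes after each was centred on its median of the 11 fitted arrays (grey parental, blue 4T1OE-CTL, red 4T1OE). The GTPase bars of 4T1OE-CTL reach 2.503 and 1.70, the macrophage bars of 4T1OE-CTL differ between replicates (-1.87 and -0.26), and the skeletal muscle bars differ within both transduced lines.

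Endothelial markers lay higher in 4T1OE. Of 19 measured, 18 were above 0 (median 0.81, none called). Without overlap, 14 lay higher and 1 lower, against 21.0% and 20.7% of all features. Cdh5, the cadherin of endothelial junctions, read 11.23 and 11.95 in 4T1OE, 8.97 and 9.01 in 4T1OE-CTL, and 11.54 and 10.38 in parental tumours (2.60, SE 0.552, adjusted p = 0.193). Flt1 and Kdr, the receptors of VEGF, differed by 1.82 and 1.56, Plvap by 1.56 and Tie1 by 1.16. Pecam1 differed by 1.23. Tek and Sox17 lay under the negative control median on all 4 arrays. Of 16 angiopoietin and VEGF genes, 13 were above 0, and 9 lay higher and 0 lower without overlap (median 0.63). Tek, Tie1, Flt1 and Kdr are in both this list and the endothelial list. Dll4, a Notch ligand of sprouting vessels, read 8.77 and 8.98 against 6.85 and 6.73 (2.09, adjusted p = 0.146). Angpt2, a TIE2 ligand released by endothelium, read 9.69 and 9.61 against 7.40 and 8.12 (1.90, adjusted p = 0.145). Angpt1 differed by 2.66 (adjusted p = 0.563), and by 1.26 with each array's standard deviation as covariate. The angiopoietin and VEGF median was 0.36 without WT 4T1OE replicate 2 and 1.18 without replicate 1. Among pericyte genes Rgs5 differed by 2.39 and Mcam by 2.20, and the list median was 0.22 (0.07 without WT 4T1OE-CTL replicate 2, 0.41 without WT 4T1OE-CTL replicate 1, 0.36 without WT 4T1OE replicate 1). The summed level of the endothelial list was 14.03 and 14.35 in 4T1OE, 12.90 and 13.79 in 4T1OE-CTL, and 13.82 and 13.61 in parental tumours, which lay between the means of the transduced lines. Against parental tumours the list median was 0.62 in 4T1OE and -0.43 in 4T1OE-CTL.

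Of 30 measured matrix genes, 21 were below 0 (median -0.22), and 9 lay lower and 7 higher without overlap, shares near the 20.7% and 21.0% of all features. The median was 0.13 without WT 4T1OE-CTL replicate 1 and -0.64 without replicate 2. Fibroblast markers had a median of -0.47 over 16 genes, with 6 lower and 1 higher without overlap, and their part in the matrix values was not tested. Dcn, Lum, Col1a1, Col1a2 and Col3a1 are in both lists. Thbs2, a matricellular protein, read 10.61 and 10.15 in 4T1OE, 13.79 and 12.27 in 4T1OE-CTL, and 12.77 and 13.15 in parental tumours (-2.65, adjusted p = 0.303). Col1a1 and Col1a2, the chains of type I collagen, differed by -1.62 and -1.85, and the crosslinking enzyme gene Lox by -1.35. Ibsp, a bone matrix sialoprotein, differed by -2.91 (adjusted p = 0.365). Col18a1, a basement membrane collagen from which endostatin is cut, differed by 1.76. Against parental tumours, Col1a1 was 2.87 lower and Col1a2 3.15 lower in 4T1OE (adjusted p = 0.043 and 0.0485). Igfbp5, an IGF-binding protein of mammary involution, read 7.9996 and 6.20 in 4T1OE, 9.44 and 11.45 in 4T1OE-CTL, and 4.81 and 7.23 in parental tumours (-3.34, SE 0.976, adjusted p = 0.407). The value of 4.81 lay under the negative control median of its array.

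The highest difference among the genes named was that of Mest, an imprinted gene expressed from the paternal copy. It read 12.16 and 12.87 in 4T1OE, 8.97 and 7.74 in 4T1OE-CTL, and 11.05 and 10.88 in parental tumours. The difference was 4.16 (SE 0.637, adjusted p = 0.0921), and 3.55 to 4.78 with 1 array left out. None of the 17 measured imprinted growth genes was called, the list median was 0.03, and 7 lay under the negative control median on all 4 arrays. Csn3, which encodes kappa-casein, read 10.11 and 9.11 against 7.19 and 6.27 (2.88, adjusted p = 0.313), while the milk protein list had a median of -0.17 (0.03 without WT 4T1OE-CTL replicate 1). Wap, a whey protein gene, differed by -0.24 or more in size. Sdc2, a heparan sulfate proteoglycan gene, read 12.56 and 12.76 against 9.12 and 10.60 (2.80, adjusted p = 0.238).

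Genes of glutathione and selenium metabolism lay at both ends. Mgst1, a membrane-bound glutathione transferase, read 10.70 and 10.34 in 4T1OE, 12.97 and 13.53 in 4T1OE-CTL, and 12.51 and 12.24 in parental tumours. Its difference of -2.73 (SE 0.334) had an adjusted p of 0.0613. Gsta4 differed by 1.73 and Gstp1 by 0.95 (0.63 without WT 4T1OE replicate 2), both in the opposite direction. Selenop, the plasma selenium carrier, read 14.67 and 13.85 against 10.93 and 11.56, and 11.90 and 12.95 in parental tumours (3.01, SE 0.491, adjusted p = 0.0964). Epb41l4a, a membrane-cytoskeleton linker gene, read 6.24 and 5.45 in 4T1OE, 8.90 and 8.49 in 4T1OE-CTL, and 9.28 and 9.54 in parental tumours (-2.85, adjusted p = 0.0976).

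The metabolic, stress and growth lists given here had medians of -0.09 to 0.27, against -0.01 over all features. Oxidative phosphorylation had a median of 0.18 over 54 genes, autophagy and lysosome 0.23 over 28, glycolysis and hypoxia 0.27 over 24, and the cell cycle -0.09 over 30. The antioxidant and glutathione list had 0.23 over 30 (0.04 with each array's standard deviation as covariate). The unfolded protein and integrated stress response list had 0.10 over 23. Without overlap, 13 autophagy and lysosome genes lay higher and 4 lower, against 21.0% and 20.7% of all features. The counts were 8 and 1 for glycolysis and hypoxia, 9 and 1 for oxidative phosphorylation, and 3 and 3 for the cell cycle. They were 12 and 3 for the antioxidant and glutathione list, and 4 and 2 for the stress response list. The oxidative phosphorylation median was -0.14 without WT 4T1OE-CTL replicate 1 and 0.55 without replicate 2. The cell cycle median was -0.70 and 0.36 without the same arrays. Glycolysis and hypoxia stood at 0.44 without WT 4T1OE replicate 1, and autophagy and lysosome at 0.13 and 0.41 without the 4T1OE-CTL arrays in the same order. With each array's standard deviation as covariate, the medians of oxidative phosphorylation, autophagy and lysosome, epithelial and skeletal muscle genes changed sign, to -0.16, -0.07, -0.07 and 0.47. Egln3, an oxygen-sensing hydroxylase, and Pdia6, a disulfide isomerase of the endoplasmic reticulum, differed by 1.30 and 1.16 (adjusted p = 0.352 and 0.413), and Pdia6 by 0.75 without WT 4T1OE-CTL replicate 1. Skeletal muscle genes had a median of -0.43, but deviated by 3.16 and -0.53 on the 4T1OE arrays and by 2.12 and 0.83 on the 4T1OE-CTL arrays. Their median was -1.85 without WT 4T1OE replicate 1 and 1.91 without replicate 2. Of 13 B and plasma cell markers, 10 lay under the negative control median on all 4 arrays, and of 15 adipocyte markers 9. Epithelial markers had a median of 0.07 over 24 genes (-0.11 without WT 4T1OE-CTL replicate 2, -0.05 without WT 4T1OE replicate 1), and Krt7 and Cldn4, a keratin and a tight junction claudin, differed by -1.83 and -2.73 (adjusted p = 0.434 and 0.486). Without WT 4T1OE-CTL replicate 1 these were -0.92 and -1.09, and Cldn4 was -4.37 without replicate 2.

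The same lines were compared in Nlrx1-/- hosts on separate arrays, 2 per line, where 265 features were called (1.19%), 1.1% of all features as higher and 0.0946% as lower. All 15 genes with the highest differences in WT hosts had a difference above 0 there, and 7 were called (Nlrx1, Mest, Fcrls, Folr2, Cbr2, Csn3 and Sdc2). Nlrx1, counted among them, is the gene changed by design. Of the 15 lowest, 14 had a difference below 0 and 2 were called (Tslp and Mgst1). Igfbp5 was the exception, at 0.55 in Nlrx1-/- hosts against -3.34 in WT hosts. In Nlrx1-/- hosts both 4T1OE-CTL arrays had narrower values (standard deviations 2.914 and 2.776) than both 4T1OE arrays (3.121 and 3.093). With each array's standard deviation as covariate, 14 of the highest and 12 of the lowest kept their sign, and none was called. Their medians were then 1.06 and -1.67, against 3.01 and -1.90 in the main fit. Over the alternative settings, 0 to 11 of the highest and 0 to 5 of the lowest were called. Of the 1103 features that were higher in WT hosts at an unadjusted p under 0.05, 96.2% had the same sign in Nlrx1-/- hosts, against 67.5% of all 10771 features above 0. Of the 690 lower ones, 87.4% did, against 73.7% of the 11435 features below 0.

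**Figure D5:**
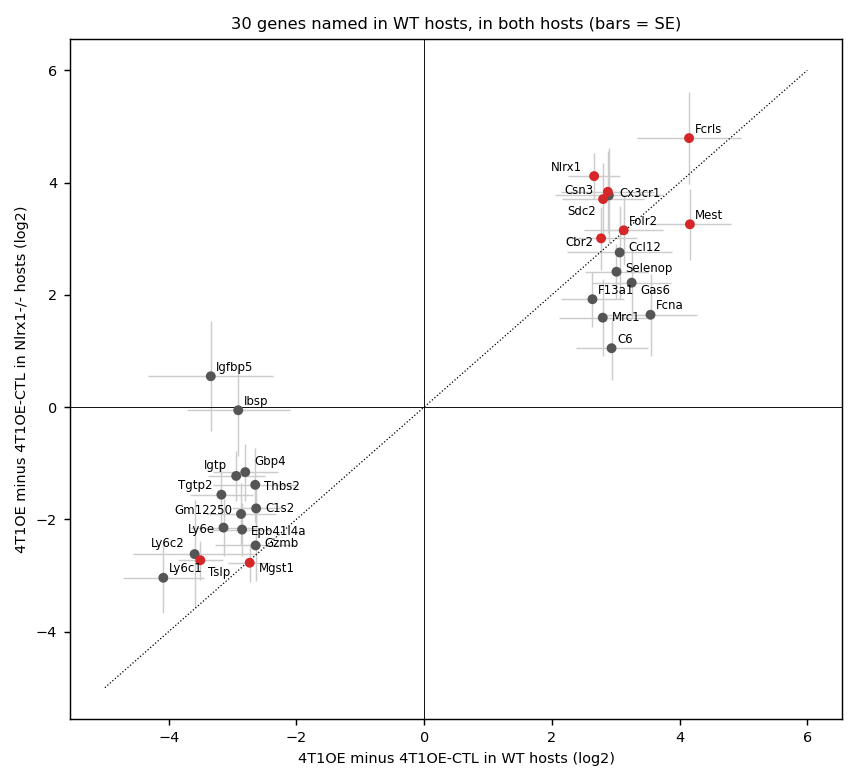
Difference between 4T1OE and 4T1OE-CTL in Nlrx1-/- hosts (vertical) against that in WT hosts (horizontal), log2, for the 15 highest and 15 lowest genes named in WT hosts, with bars of 1 SE (red, adjusted p under 0.05 in Nlrx1-/- hosts; the dotted line marks equal differences). The genes chosen as highest all lie above 0 on the vertical axis, and Igfbp5 and Ibsp lie nearest to or above 0 among the lowest.

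An interaction term (the line difference in Nlrx1-/- hosts minus that in WT hosts) tested whether the hosts differed. No feature was called by limma, and 726 (3.27%) had an unadjusted p under 0.05. That share is below the one this threshold gives when no feature has an interaction. The unadjusted interaction p-values below are therefore a description only. Nlrx1 was 4.11 higher in 4T1OE in Nlrx1-/- hosts (SE 0.407, adjusted p = 0.0141), an interaction of 1.45 (unadjusted p = 0.0307). The hosts themselves differ in Nlrx1 by design, so this interaction cannot be read as a difference in overexpression alone. Tslp fell by 2.73 there (adjusted p = 0.0186), an interaction of 0.78 (unadjusted p = 0.147). Ptpn13 differed by -0.89 or more in size in Nlrx1-/- hosts and was not called (adjusted p of the fit 0.0648). TC1500001728.mm.2 fell by 3.24 there (adjusted p = 0.0141), an interaction of 2.56 (unadjusted p = 0.000677). Mest was 3.26 higher (adjusted p = 0.0455) and Ly6c1 differed by -3.04 (adjusted p = 0.0525). The GTPase median was -0.89 in Nlrx1-/- hosts, and Irgm2, Irgm1 and Igtp differed by -0.64, -0.32 and -1.23, with interactions of 1.95, 1.77 and 1.72 (unadjusted p = 0.00629, 0.00742 and 0.0221). The macrophage and endothelial medians were 1.29 and 0.61 there. In Nlrx1-/- hosts, 4T1OE replicate 1 and 4T1OE-CTL replicate 1 stood apart in B and plasma cell genes (deviations of 3.26 and 4.35) and T cell genes (1.91 and 2.71), which touches the lymphocyte values of those hosts.

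Genes at both ends of the interaction were chosen for its size among those with an unadjusted p under 0.01, so their differences are a description. At the upper end Krt7, a keratin gene, differed by -1.83 in WT and by 1.65 in Nlrx1-/- hosts (interaction 3.48, unadjusted p = 0.00142). Prss22, a serine protease gene, differed by -1.69 and 1.29, Macc1, a gene named for its link to colon cancer metastasis, by -0.83 and 2.02, Tmprss11e, a membrane serine protease gene, by -0.54 and 2.36, and Npnt, a basement membrane protein gene, by 0.37 and 3.35. Krt7 was -0.92 in WT hosts without WT 4T1OE-CTL replicate 1, and Tmprss11e was -0.0044 without that array and -1.08 without replicate 2. Only 4 genes met the rule at the lower end. Defb45, a defensin gene, differed by 0.29 in WT and by -1.36 in Nlrx1-/- hosts (0.18 in WT hosts without WT 4T1OE replicate 1), Tppp, a tubulin-binding protein gene, by -0.17 and -1.68, Sh3bgr by 0.04 and -1.46 and Tubd1, a delta-tubulin gene, by 0.60 and -0.64. Tppp was -0.04 in WT hosts without WT 4T1OE replicate 1 and -0.30 without replicate 2, and Sh3bgr was -0.09 and 0.16. No interaction of these 9 genes passed the adjusted threshold.

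Set beside parental tumours of WT hosts, 14 of the 15 highest genes and 6 of the 15 lowest had a parental mean between the means of the transduced lines. These genes were chosen for a wide gap between those lines, which makes a parental mean between them more likely. The same count was not made over all features, so 14 and 6 are a description only. Against parental tumours, 32 features were called in 4T1OE (0.144%; 0.036% higher and 0.108% lower) and 108 in 4T1OE-CTL (0.486%; 0.288% higher and 0.198% lower). Both comparisons share the parental arrays. Epb41l4a was 3.57 under its parental level in 4T1OE (adjusted p = 0.0423) and differed by -0.72 in 4T1OE-CTL (adjusted p = 0.757). In 4T1OE-CTL, TC1500001728.mm.2 was 5.62 higher than in parental tumours (adjusted p = 0.000909), Ly6c1 3.89 higher (adjusted p = 0.0334), Tgtp2 3.45 higher (adjusted p = 0.0222) and Gzmb 5.14 higher (adjusted p = 0.0123). In 4T1OE these 4 differed from parental tumours by -0.19, -0.20, 0.27 and 2.51, and none was called. Cldn4 read 15.35 and 14.42 in parental tumours against 7.24 and 7.45 in 4T1OE and 11.71 and 8.44 in 4T1OE-CTL, which put both transduced lines under the parental level. The 4T1OE level was 7.54 under that of parental tumours (adjusted p = 0.0279).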

How the data were processed

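RNA of 12 tumour pools was hybridised to Clariom S mouse arrays. The values are log2 levels that the authors deposited, made with Transcriptome Analysis Console per the submitters' processing notes. Its version, normalization and build are not given in the sources used here. Of 28846 features, 6640 control features were dropped and 22206 tested, 19572 of them with 1 gene symbol. One mean per group was fitted on 11 arrays with limma 3.58.1 (R 4.3.3, lmFit and eBayes, two-sided, 5 residual degrees of freedom), with Benjamini-Hochberg adjustment over all features and a threshold of 0.05. All 6 groups share 1 estimate of the spread. Replicate 1 of the parental line in Nlrx1-/- hosts was left out, inferred to be the sample the array service advised excluding. The number of arrays limits the precision. The 12 tumour arrays held no identical pair, and 1 further column, of a manufacturer's control array, was not used.

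Genes named were the called features, the 15 highest and 15 lowest differences (1 symbol, unadjusted p under 0.01, mean above the median feature, no overlap), Nlrx1, 4 markers given for the comparison, up to 4 members of each list with the smallest unadjusted p, near-identical copies, and up to 5 interactions at each end by the same rule (4 genes met it at the lower end). Others were named for their role in a list, after their values were seen. The members and lists were chosen with earlier results of these data known. For a gene with several features, the one with the highest mean was used. Promoter windows come from RefSeq (GRCm38.p6). Other normalizations, fits, filters and single arrays left out were tried as alternatives. The fitting was tested on simulated data.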

Additional observations from a re-analysis of the deposited data

How the results depend on the processing

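The count of 3 calls in WT hosts became 0 when the left-out array was added, 31 in a fit of the compared groups only (16 higher, 15 lower), 1 with WT hosts alone, 1 with arrays at one median and one standard deviation, 26 with array weights (9 higher, 17 lower), 861 at an unadjusted p under 0.05 with a fold of 2, and 1 to 12 with 1 array left out. Same-numbered samples correlated in their deviations at -0.053 between the compared groups, 0.371 between the transduced lines in Nlrx1-/- hosts, 0.363 between 4T1OE-CTL and parental in WT hosts, and -0.309 to 0.003 in the other pairs. No label pairs the numbers and not every correlation passed 0.1, so they were not taken as pairs. With the replicate block the count was 1, that for 4T1OE against parental 13, and that in Nlrx1-/- hosts 57. The interaction count of 0 was 571 at the fold threshold. The 32 calls of 4T1OE against parental were 6 with all 12 arrays, 3 in a fit of those groups, 7 with WT hosts alone, 6 after quantile normalization, 17 after centring, 8 at one median and standard deviation, 8 with each array's standard deviation as covariate, 61 with array weights and 1203 at the fold threshold, and 0 to 303 with 1 array left out. The 108 calls of 4T1OE-CTL against parental were 4, 17, 196, 42 and 1033 with all 12 arrays, those groups alone, the covariate, array weights and the fold threshold, and 18 to 159 with 1 array left out. The 265 calls in Nlrx1-/- hosts were 1 with all 12 arrays, 1 in a fit of those groups, 57 after quantile normalization, 576 after centring, 173 at one median and standard deviation, 1 with the covariate, 419 without the dimmest features and 2667 at the fold threshold, and 0 to 1341 with 1 array left out. The cause of these shifts was not tested. Where leaving out an array left 1 in a group, it was assumed to vary like the other groups.

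Tslp lost its call with all 12 arrays (adjusted p = 0.0756), WT hosts alone (0.0548), one median and standard deviation (0.0624) and the replicate block (0.0745). Ptpn13 lost it there too (0.0756, 0.0747, 0.0624 and 0.0803), after quantile normalization (0.0642) and with the covariate (0.0881). Nlrx1 was called with the compared groups alone (0.034) and with array weights (0.0497). Of 2881 values for 131 genes under the alternatives, 10 changed sign, and 125 genes kept theirs throughout. The covariate gave -0.21 for Npnt, -0.18 for Crlf2, -0.11 for Mavs and 0.085 for Tppp. Crlf2 was 0.26 without WT 4T1OE-CTL replicate 2, -0.014 without WT 4T1OE replicate 2 and -0.15 without WT 4T1OE-CTL replicate 1. Il33 was 0.25 without WT 4T1OE replicate 2 and -0.042 without WT 4T1OE replicate 1, and Mavs -0.10 and 0.73 without WT 4T1OE-CTL replicates 1 and 2. Sh3bgr was -0.087 to 0.16 with 1 array left out, and -0.082 without WT 4T1OE-CTL replicate 2.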
